A study of Arabidopsis thaliana with 28 samples.

Results

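A set of 28 Arabidopsis thaliana genes lost most of its RNA in seedlings given trichostatin A (TSA), a drug that inhibits RPD3-type histone deacetylases. The members were chosen on the treatment itself. Each had at least 2 CPM (the count of a gene divided by the total count of its library and multiplied by 1000000) in each of the 5 Mock libraries, and its highest TSA library lay more than 5 times below its lowest Mock library. Of 36632 genes in the table, 15150 had 2 CPM or more in every Mock library, and the 28 members were 0.185% of those. Their TSA and Mock values are therefore a description and carry no test, whereas the levels in a separate set of mutants were not used in the choice and were tested.

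RNA was sequenced from seedlings harvested 12 days after germination at about 21°C, after 4 days of stratification at 4°C. TSA-treated and Mock seedlings (5 libraries each) were both Columbia-0 (Col-0) and grew in MS medium with sucrose, TSA being given at a dose and for a time that the sources used here do not state. A second experiment, of plants grown in the soil mixture, held 3 libraries each of h2a.z-5, hda6-1, hda9-1, hda6-1 h2a.z-5, hda9-1 h2a.z-5 and Col-0. The series title links acetylation of histone H3 to incorporation of the histone variant H2A.Z, and the replicates are described as independent biological ones. The h2a.z-5 line is a triple mutant with a frameshift in the H2A.Z gene HTA8 and the insertions SALK_054814 and SALK_017235. The hda6-1 allele is SALK_201895C and hda9-1 is SALK_007123, in genes for the histone deacetylases HDA6 and HDA9. The h2a.z-5 plants and both combined lines share the H2A.Z alleles, and all plants share the Col-0 background of the labels.

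Total counts ran between 30257874 and 40395659 per library for TSA and Mock, and between 32795474 and 39633678 for the genotypes. HTA11, another H2A.Z gene, averaged between 1.06 and 2.75 CPM in the 3 groups that carry the h2a.z-5 alleles, against 61.1 ± 8.73 CPM in Col-0 (SD, n = 3). The H2A.Z gene HTA9 kept more of its RNA, with means of 44.7 to 59.4 CPM in those groups, against 143 ± 5.59 CPM in Col-0. HTA8 averaged 3.86 to 8.71 CPM in them, against 16.8 ± 1.58 CPM in Col-0 (SD, n = 3 each). HDA9 averaged 1.597 CPM in hda9-1 and 1.04 CPM in its combined line, against 13.8 ± 1.42 CPM in Col-0 (SD, n = 3). HDA6 did not follow its labels. It averaged 121 ± 32.2 CPM in libraries labelled hda6-1, and 17.3 ± 1.92 CPM in the combined libraries with that label, against 16.7 ± 3.71 CPM in Col-0 (SD, n = 3 each). Both groups are therefore named as libraries labelled so, and each direction drawn from them rests on labels that the HDA6 level does not bear out. All 33 listed photosynthesis genes, the defining transcripts of green tissue, were detected in every group.

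Replicate 5 stood apart in the TSA and Mock experiment. TSA replicate 5 was the highest TSA library for 20 of the 28 members, and the members summed to 177 CPM in it, against 39.8 to 57.9 CPM in the other 4 TSA libraries. Mock replicate 5 was the lowest Mock library for 11 members. Because the rule uses the highest TSA and lowest Mock value, replicate 5 sets the size of the set. The rule was met by 212 genes without replicate 5 of both groups, 117 without TSA replicate 5 and 101 without Mock replicate 5. Each of those sets held all 28 members, as it had to, since leaving libraries out can only loosen the rule. Leaving out any other single library gave 28 to 35 genes. With CPM scaled by TMM, which adjusts library sizes for RNA composition, 19 genes met the rule and 9 members (AT3G44510, AT5G01320, AT5G54090, CNGC15, PAP14, PAP24, PIF7, PRB1 and RL5) did not.

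When phosphate runs short, Arabidopsis switches on a set of genes through the factor PHR1 and its relatives, which bind a short palindromic promoter element called P1BS. Among the genes switched on are purple acid phosphatases, which free phosphate from organic compounds, and noncoding RNAs such as AT4, which carry a site that pairs with the microRNA miR399 and keep it from its target PHO2, a ubiquitin conjugase that limits phosphate uptake. Histone deacetylases remove acetyl groups from histone tails and are best known as repressors, and H2A.Z replaces ordinary H2A in some nucleosomes, among them those next to transcription start sites.

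Of the 28 members, 25 are annotated as protein-coding, 2 as long noncoding RNAs and 1 as a pseudogene. By this annotation noncoding RNAs and pseudogenes made up 10.7% of the members, against 1.201% of the 15150 genes at 2 CPM in Mock. That share rests on 3 members, of which AT2G08820 and AT2G08825 overlap on opposite strands and may share reads. AT4, named above among noncoding RNAs, is a member that the annotation counts as protein-coding. The members' median length was 1870 bases (323 to 6215), against a median of 2550 bases for those genes. Of the members, 17.9% (5) had 1 exon, against 10.5% of those genes. Chromosomes 1 to 5 held 5, 9, 5, 2 and 7 members. Roles were assigned for this report and are not part of the annotation. By these roles 4 belonged to phosphate starvation, 3 encoded defence-type secreted proteins, 4 enzymes, 6 proteins of transcription or chromatin and 2 membrane signalling proteins. A further 3 were the noncoding or pseudogene loci, 5 encoded proteins with no assigned function, and 1 stood in none of these groups. The list of phosphate starvation genes used below held 1 member.

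The promoters of the 4 phosphate members are shown first, since the P1BS element occurs in each, with that of the pseudogene AT2G04460, which held the most matches. P1BS was searched as GNATATNC, which reads the same on both strands, from 250 bases before to 50 bases after each annotated start. It was found in 9 of the 28 member promoters (32.1%), against 6.11% of 36630 promoters of all genes and 6.42% of those expressed in Mock. The other holders were AT2G08820, AT1G08165, AT3G44510 and AT2G38300. Sequences are the 250 bases before the start in RefSeq's TAIR10.1, read 5′ to 3′ on the gene's strand, with the P1BS matches in capitals. The PAP14 window lies at chr2:19266457-19266706 on the minus strand, PAP24 at chr4:12814457-12814706 on the minus strand, PAP25 at chr4:17175858-17176107 on the minus strand, AT4 (AT5G03545) at chr5:894332-894581 on the plus strand and AT2G04460 at chr2:1549000-1549249 on the minus strand.
PAP14: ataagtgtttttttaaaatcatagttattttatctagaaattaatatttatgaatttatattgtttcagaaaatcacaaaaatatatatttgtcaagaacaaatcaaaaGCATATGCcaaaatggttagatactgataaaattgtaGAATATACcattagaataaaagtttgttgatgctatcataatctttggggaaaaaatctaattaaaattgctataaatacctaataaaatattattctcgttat
PAP24: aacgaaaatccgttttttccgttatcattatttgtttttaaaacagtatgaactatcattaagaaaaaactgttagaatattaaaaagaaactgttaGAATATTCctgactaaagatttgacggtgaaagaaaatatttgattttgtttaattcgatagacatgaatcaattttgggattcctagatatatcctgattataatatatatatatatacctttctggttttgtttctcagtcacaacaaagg
PAP25: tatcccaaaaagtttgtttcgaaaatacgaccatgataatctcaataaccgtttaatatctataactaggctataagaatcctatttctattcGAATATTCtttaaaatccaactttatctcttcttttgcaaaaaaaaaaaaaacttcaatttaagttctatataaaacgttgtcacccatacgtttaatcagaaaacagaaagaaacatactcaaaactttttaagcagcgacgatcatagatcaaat
AT4 (AT5G03545): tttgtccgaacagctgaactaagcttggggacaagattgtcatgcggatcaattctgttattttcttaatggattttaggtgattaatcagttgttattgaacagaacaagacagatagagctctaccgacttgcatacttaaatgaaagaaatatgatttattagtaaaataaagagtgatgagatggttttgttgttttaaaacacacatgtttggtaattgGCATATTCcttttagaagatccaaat
AT2G04460: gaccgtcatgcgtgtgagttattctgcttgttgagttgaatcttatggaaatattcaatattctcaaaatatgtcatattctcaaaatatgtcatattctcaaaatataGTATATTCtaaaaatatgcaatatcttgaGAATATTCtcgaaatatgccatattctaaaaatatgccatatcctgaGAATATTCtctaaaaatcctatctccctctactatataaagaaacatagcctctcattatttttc

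The first base of the match stood 26 bases before the start in AT4, 153 bases before it in PAP24 and 157 bases before it in PAP25. The same letters, GAATATTC, made up the match in PAP24, PAP25 and AT3G44510 and 2 of the 3 matches in AT2G04460. PAP14 held 2 matches, 141 and 104 bases before its start. For the other elements searched, the W-box core TTGAC was in 64.3% of member promoters against 49.6% of all, the TATA letters TATAAA in 60.7% against 48.8%, the TGA element TGACG in 25% against 22.7%, the L1 box TAAATGNA in 14.3% against 10.6%, the G-box CACGTG in 10.7% against 6.58%, the auxin element TGTCTC in 10.7% against 14.2%, the evening element AATATCT in 10.7% against 10.9% and the I-box GATAAG in 7.14% against 15.1%. The root hair element was in none of the member promoters and in 0.385% of all. Each was searched on both strands, and a match is a run of letters, with no measure of binding. No P1BS match overlapped a match of another element, whereas the W-box core and the TGA element can share the letters TGAC.

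In 24 of the 28 the TSA mean was below 1 CPM, 6 had at least 1 TSA library with no count, and none was at 0 in all 5. For the 26 members with more than 3 TSA counts in all, the Mock mean was 7.45 to 146 times the TSA mean, with a median of 26.5. Without replicate 5 of both groups the ratios were 8.26 to 656, with a median of 43.6. By the same counts TSA was called lower in 16.7% of 20201 genes tested (edgeR's quasi-likelihood test, Benjamini-Hochberg adjusted p below 0.05) and higher in 18.5%, shares from which nothing is read about the members, since they were chosen on this contrast. In RNA from many cells at once, fewer cells of a type and less RNA per cell cannot be told apart.

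**Figure D1:**
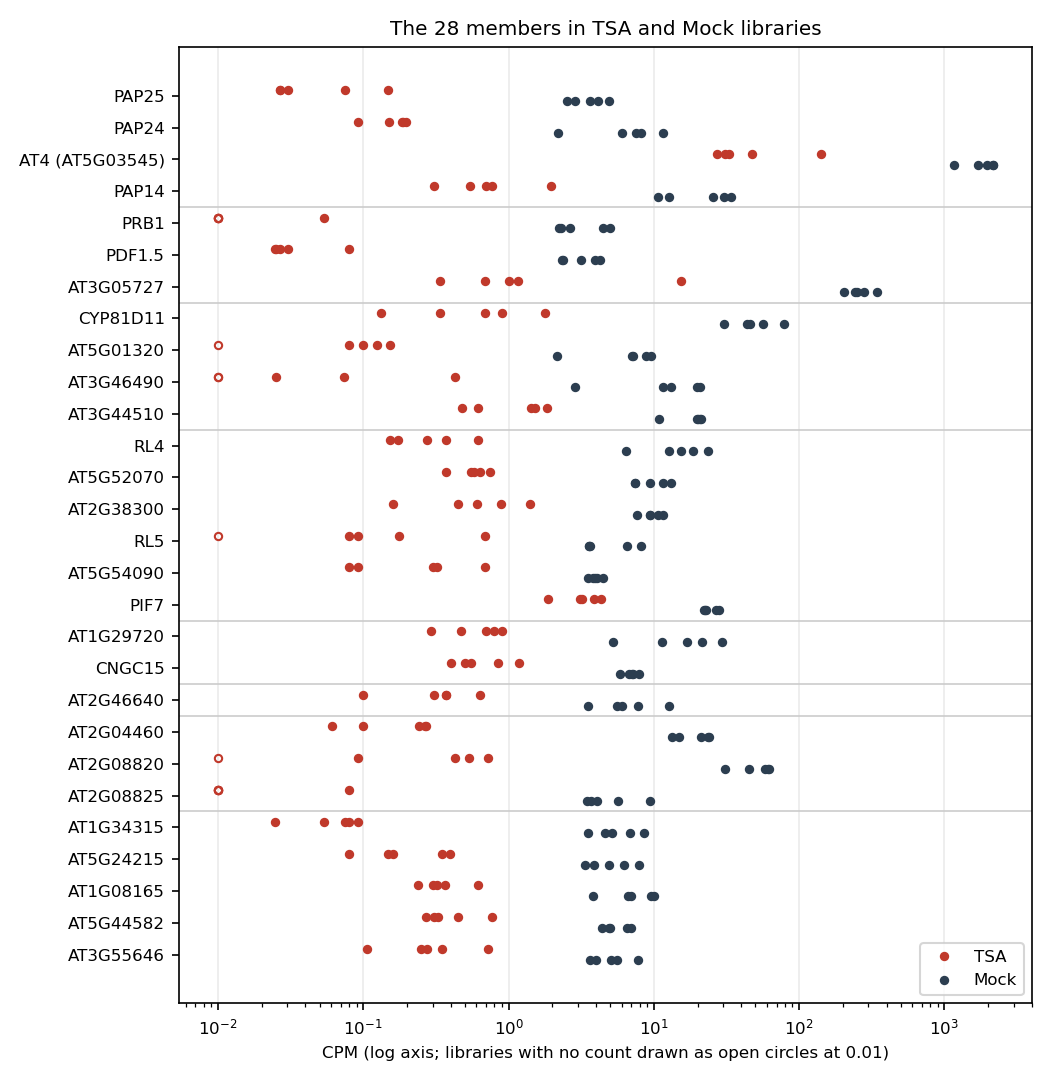
CPM of the 28 members in each of the 5 TSA libraries (red) and 5 Mock libraries (dark), on a log axis, grouped by role from phosphate starvation at the top to proteins with no assigned function at the bottom. Open circles at 0.01 stand for libraries with no count, and the gap between the colours is set by the rule that chose the members.

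AT4, the RNA that pairs with miR399, had 47.5, 32.8, 27.2, 30.7 and 141 CPM in TSA replicates 1 to 5, against 2169, 1156, 2158, 1705 and 1959.8 CPM in Mock. The Mock mean was 32.7 times the TSA mean, and 52.1 times without replicate 5 of both groups. TSA replicate 5 was the highest TSA library by a wide margin, yet it lay far below all Mock libraries. The locus, annotated as protein-coding, lies at chromosome 5, 894582 to 895517, plus strand, TAIR10.1.

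The members held 3 purple acid phosphatase genes. PAP14 had 1.97, 0.305, 0.545, 0.701 and 0.774 CPM in TSA replicates 1 to 5, against 33.8, 25.4, 12.8, 30.3 and 10.7 CPM in Mock. PAP24 had 0.186, 0.0916, 0.198, 0.150 and 0.187 CPM in TSA, against 8.13, 11.6, 6.06, 7.49 and 2.2 CPM in Mock. PAP25 had 0.0266, 0.0305, 0.149, 0.0751 and 0.0267 CPM in TSA, against 4.13, 3.63, 2.51, 4.91 and 2.89 CPM in Mock. Their Mock means were 26.3, 43.7 and 58.8 times the TSA means, and for PAP14 it was TSA replicate 1, not replicate 5, that was highest. PAP24 overlaps AT4G24880 on the opposite strand, which averaged 11.2 ± 1.503 CPM in TSA and 10.12 ± 0.9997 CPM in Mock (SD, n = 5 each); whether reads were counted by strand is not stated.

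Phosphate genes outside the members were called in both directions. Their list was chosen with earlier results of these data known, and the contrast is the one that chose the members. These calls are therefore no independent test of the phosphate members. Of 37 listed phosphate starvation genes that are no members and were tested, 2 were higher and 16 lower with TSA, and the median log2 fold change was -0.64, against -0.07 over all 20201 genes. With the replicate number as a block the same list gave 4 higher and 19 lower, where the blocked fit called 22.7% of all genes higher and 22.1% lower. Without replicate 5 of both groups the list gave 6 and 20. Most other lists gained calls there too, and the shares of all genes called were not computed. PHT1;7, a phosphate transporter, was lower: it had 0.0726 ± 0.0352 CPM in TSA and 2.04 ± 0.645 CPM in Mock, a log2 fold change of -4.43 ± 0.45 (SE, adjusted p = 0.000102). It missed membership only on the Mock level, since it met the rule with at least 1 CPM in each Mock library. The SPX proteins bind inositol pyrophosphates and hold PHR1 back when phosphate is plentiful: SPX1 had 53.6 ± 27.3 CPM in TSA and 255 ± 78.3 CPM in Mock (log2 fold change -2.01, adjusted p = 0.00106). SPX2 fell to 8.48 ± 3.98 CPM in TSA, against 37.3 ± 9.62 CPM in Mock, and SPX3 to 3.18 ± 1.54 CPM in TSA, against 21.6 ± 8.06 CPM in Mock (adjusted p = 0.000400 and 0.00131). These 4 calls held under every alternative run.

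Within the same list the 2 genes that were higher were the transporter PHT1;4 and LPR2, a multicopper oxidase of the root response to low phosphate. PHT1;4 had 281 ± 110 CPM in TSA and 169 ± 23.7 CPM in Mock (log2 fold change 1.07, adjusted p = 0.0279), and LPR2 91.0 ± 24.2 CPM in TSA and 74.2 ± 7.79 CPM in Mock (0.57, adjusted p = 0.0377). Both calls were lost when single libraries were left out, each of them without Mock replicate 1 or 4 or TSA replicate 1 or 2. PHO2, the target of miR399, had 157 ± 39.4 CPM in TSA and 239 ± 139 CPM in Mock and was not called (log2 fold change -0.32, adjusted p = 0.628). Of 19 other purple acid phosphatase genes tested, 1 was higher and 5 lower. PAP5 had 0.01002 ± 0.0224 CPM in TSA and 2.09 ± 0.987 CPM in Mock, while PAP15 rose to 8.98 CPM in TSA, against 2.97 CPM in Mock. Like PHT1;7, PAP5 met the rule with at least 1 CPM in each Mock library.

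**Figure D2:**
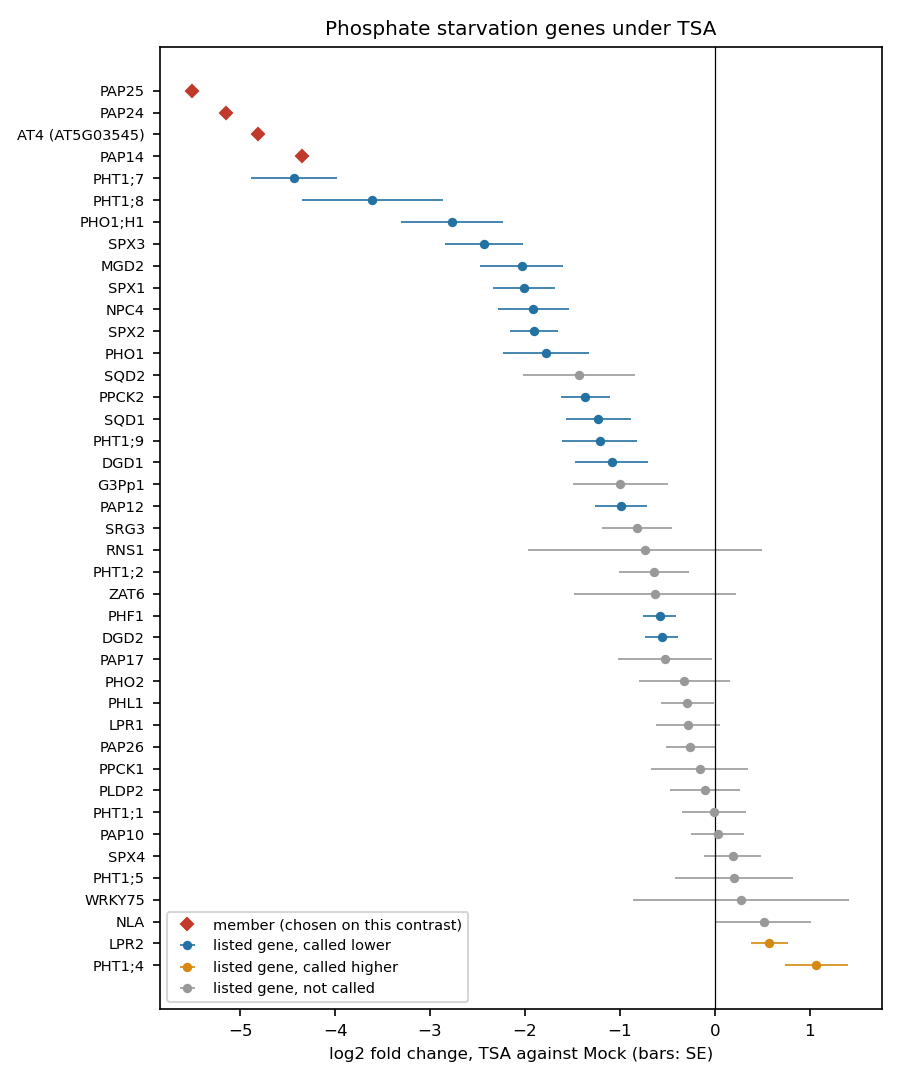
Log2 fold change of TSA against Mock with its standard error for 37 listed phosphate starvation genes, with the 4 phosphate members as red diamonds, which carry no test. Of the listed genes 16 were called lower (blue) and PHT1;4 and LPR2 higher (orange), with PHT1;7 the lowest of them at -4.43.

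Of 17 listed stomatal genes 0 were higher and 8 lower, led by STOMAGEN, the peptide that promotes stomata (2.02 ± 0.367 CPM in TSA, 12.3 ± 5.26 CPM in Mock), and MYB60, a guard cell factor (2.18 ± 1.40 CPM in TSA, 15.2 ± 2.42 CPM in Mock); the list summed to 225 to 383 CPM in TSA libraries and 367 to 668 CPM in Mock libraries, with no gene at 0. Of 33 listed photosynthesis genes 1 was higher and 6 lower, and 15 were lower without replicate 5 of both groups. Of 30 root hair genes tested 5 were higher and 0 lower; the list summed to 143 to 385 CPM in TSA and 144 to 187 CPM in Mock, and without TSA replicate 5 it gave 4 higher and 8 lower. Over all 20201 genes tested, 18.5% were higher and 16.7% lower with TSA when all libraries were used. Without replicate 5 most lists gained calls, and the shares of all genes called there were not computed. The counts without replicate 5 are therefore not set against these shares. These lists, too, were chosen with earlier results of these data known. Other lists not described here were often called too, among them cell cycle (11 higher and 0 lower of 22) and auxin response (7 higher and 12 lower of 35). The part of these tissue markers in the members' values was not tested.

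The 3 defence-type members are small secreted proteins. AT3G05727, annotated to a family of pollen coat proteins that bind an S locus-related glycoprotein, had 0.692, 0.336, 1.16, 1.00 and 15.5 CPM in TSA replicates 1 to 5, against 203, 344, 249, 243 and 281 CPM in Mock. Its Mock mean was 70.7 times the TSA mean, and 325 times without replicate 5 of both groups, so the TSA mean rested on 1 library. PRB1, a basic relative of the defence marker PR1, had 0 CPM in TSA replicates 1 to 4 and 0.0534 CPM in replicate 5, against 2.21, 4.96, 2.67, 4.44 and 2.30 CPM in Mock. The plant defensin gene PDF1.5 had 0.0266, 0.0305, 0.0248, 0.0250 and 0.0800 CPM in TSA, against 3.17, 2.36, 4.24, 2.34 and 3.96 CPM in Mock. For both, TSA libraries held only a handful of counts, 2 for PRB1 and 7 for PDF1.5 in all 5 together. Of 5 other PDF1 genes tested, 1 (PDF1.2c) was higher with TSA and 0 were lower, and that call was lost without any of 6 single libraries.

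Among the enzymes, CYP81D11 is a cytochrome P450 known to be induced by cis-jasmone and by foreign chemicals. It had 0.133, 0.336, 0.693, 0.901 and 1.79 CPM in TSA replicates 1 to 5, against 45.9, 79.0, 43.6, 30.4 and 56.0 CPM in Mock. No TSA library came near the Mock range, and of 4 other CYP81D genes tested 2 were higher (CYP81D8 at 62.6 CPM in TSA and 8.52 CPM in Mock, CYP81D5 at 31.5 CPM in TSA and 17.41 CPM in Mock) and 0 lower. The CYP81D5 call was lost without any of 8 single libraries. CYP81D11 overlaps HMG (AT3G28730) on the opposite strand, which averaged 64.7 ± 8.75 CPM in TSA and 49.4 ± 8.28 CPM in Mock (SD, n = 5 each). AT3G46490, of the oxygenases that use 2-oxoglutarate and iron, had 0, 0, 0.0743, 0.0250 and 0.427 CPM in TSA, against 20.8, 13.1, 11.6, 19.7 and 2.89 CPM in Mock. Replicate 5 was the highest TSA and by far the lowest Mock library here. AT5G01320, a pyruvate decarboxylase family gene, stayed at or below 0.153 CPM in TSA, against 2.15 to 9.57 CPM in Mock, and the hydrolase gene AT3G44510 had 0.476 to 1.84 CPM in TSA and 10.9 to 21.2 CPM in Mock.

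Transcription and chromatin proteins made up the largest role group as assigned, 6 members, with the mismatch repair protein AT5G54090 counted among them. PIF7, a bHLH factor that drives growth in shade, had 1.86, 3.11, 3.89, 3.21 and 4.35 CPM in TSA replicates 1 to 5, against 22.0, 28.2, 22.7, 26.7 and 22.6 CPM in Mock. It had the smallest drop of the members, with a Mock mean 7.45 times the TSA mean. Of 7 other genes of the phytochrome-interacting factor family tested, 1 (SPT) was higher and 2 (PIL6 and UNE10) were lower, but UNE10 lost its call without any of 6 single libraries and SPT without Mock replicate 4.

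RL4 and RL5 encode small single-MYB proteins named after RADIALIS of snapdragon. RL4 had 0.372, 0.153, 0.173, 0.275 and 0.614 CPM in TSA replicates 1 to 5, against 18.7, 12.7, 23.61, 15.3 and 6.42 CPM in Mock. RL5 had 0.0798, 0.0916, 0, 0.175 and 0.694 CPM in TSA, against 6.54, 3.60, 8.10, 3.64 and 3.56 CPM in Mock. Of the 3 other RAD-like genes tested, RL3 and RL6 were lower (RL3 at 0.514 ± 0.567 CPM in TSA and 6.89 ± 4.08 CPM in Mock; RL6 lost its call without any of 5 single libraries) and RL2 was not called, at 16.0 ± 6.42 CPM in TSA and 16.6 ± 3.22 CPM in Mock. The myb-like gene AT2G38300 had 0.160 to 1.41 CPM in TSA and 7.67 to 11.5 CPM in Mock, AT5G52070, with an Agenet domain, a fold found in some proteins that bind histone marks, 0.372 to 0.743 CPM in TSA and 7.38 to 13.2 CPM in Mock, and AT5G54090, a MutS-type mismatch repair protein, 0.0798 to 0.694 CPM in TSA and 3.54 to 4.50 CPM in Mock.

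Both membrane members are signalling proteins. CNGC15, a cyclic nucleotide-gated calcium channel, had 0.505, 0.549, 0.842, 0.401 and 1.17 CPM in TSA replicates 1 to 5, against 7.04, 7.19, 5.87, 6.78 and 7.85 CPM in Mock. It passed the rule by the narrowest margin, and of 13 other genes of its family tested 3 were higher and 2 lower. No family gene was called lower without TSA replicate 1, 3 or 4, 1 was without Mock replicate 2 or 4, and 5 were called higher without Mock replicate 5. AT1G29720, a receptor kinase with leucine-rich repeats, had 0.293 to 0.907 CPM in TSA and 5.24 to 29.4 CPM in Mock. AT2G46640, annotated as resembling an NAD-dependent deacetylase with Tiller Angle Control 1 among its synonyms, had 0.100 to 0.640 CPM in TSA and 3.53 to 12.7 CPM in Mock.

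AT2G08820 had 0.532, 0.0916, 0, 0.426 and 0.720 CPM in TSA replicates 1 to 5, against 61.6, 31.1, 57.9, 45.4 and 61.7 CPM in Mock, with a Mock mean 146 times the TSA mean. That was the highest ratio among the 26 over all 5 replicates, but without replicate 5 of both groups AT2G08820 stood at 187, below AT3G46490 at 656 (4 TSA counts) and AT3G05727 at 325. AT2G08825 lies inside it on the opposite strand, at chromosome 2, 15403296 to 15403618, and had 0 CPM in TSA replicates 1 to 4 and 0.0800 CPM in replicate 5, against 9.39, 3.69, 5.71, 4.08 and 3.45 CPM in Mock. Without strand in the counts, reads of this pair cannot be told apart. The pseudogene AT2G04460 had 0.266, 0.0611, 0.272, 0.100 and 0.240 CPM in TSA, against 23.7, 15.02, 13.4, 21.3 and 23.9 CPM in Mock.

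The 5 remaining members encode proteins with no assigned function. AT1G34315 had 0.0798, 0.0916, 0.0248, 0.0751 and 0.0534 CPM in TSA replicates 1 to 5, against 8.59, 3.54, 5.18, 4.65 and 6.83 CPM in Mock. Its counts are uncertain, because 10 other places in the genome match it at 90% identity or more over at least 100 bases and together cover 75.7% of the gene. The same search found 2 such places for AT2G04460 (47.4% of the gene), 4 for AT3G46490 (23.9%) and 1 for RL5 (13.4%), and none for the other 24 members. AT5G24215, AT1G08165, AT5G44582 and AT3G55646 had 0.0798 to 0.774 CPM across their TSA libraries and 3.35 to 10.05 CPM across their Mock libraries.

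At the edge of the rule, the highest TSA over the lowest Mock value was 0.197 for PIF7, 0.198 for AT3G55646 and 0.1999 for CNGC15. The nearest genes outside were HTA4 at 0.201, DYW1 at 0.203 and AT4G22517 at 0.203. HTA4, itself an H2A.Z gene, had 0.124 to 0.480 CPM in TSA and 2.39 to 4.48 CPM in Mock, on the far side of the boundary by a small margin.

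On soil, untreated Col-0 held the members at other levels than Mock seedlings in medium. The experiments are separate tables that differ in growth conditions and in library set, which cannot be told apart here, so the values are set side by side with no test. There were 5 members with a higher median on soil than in Mock, 11 with a median more than 5 times lower on soil, and 7 with a soil median below their own highest TSA library. The rule asked for a level in Mock and none on soil, which by itself favours lower soil values. The shares among all genes were not computed, so these counts are not read as a trait of the members. The phosphate members were among the low ones: AT4 had 8.45, 8.63 and 6.41 CPM in soil Col-0, PAP14 0, 0.0610 and 0.151 CPM, PAP24 0.227, 0.335 and 0.126 CPM and PAP25 0, 0.0610 and 0 CPM. CYP81D11 (0.151, 0.244 and 0.782 CPM), AT3G44510 (0.555, 0.152 and 0.353 CPM) and AT2G08820 (0.0252, 0.0915 and 0 CPM) were low on soil as well. AT2G08825 had no count in the 3 soil Col-0 libraries, which allows up to 0.0268 CPM over the group (3 counts; counting error only). RL4 went the other way, with 96.5, 132 and 93.8 CPM on soil, and AT3G55646 had 10.2, 25.1 and 13.4 CPM.

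**Figure D3:**
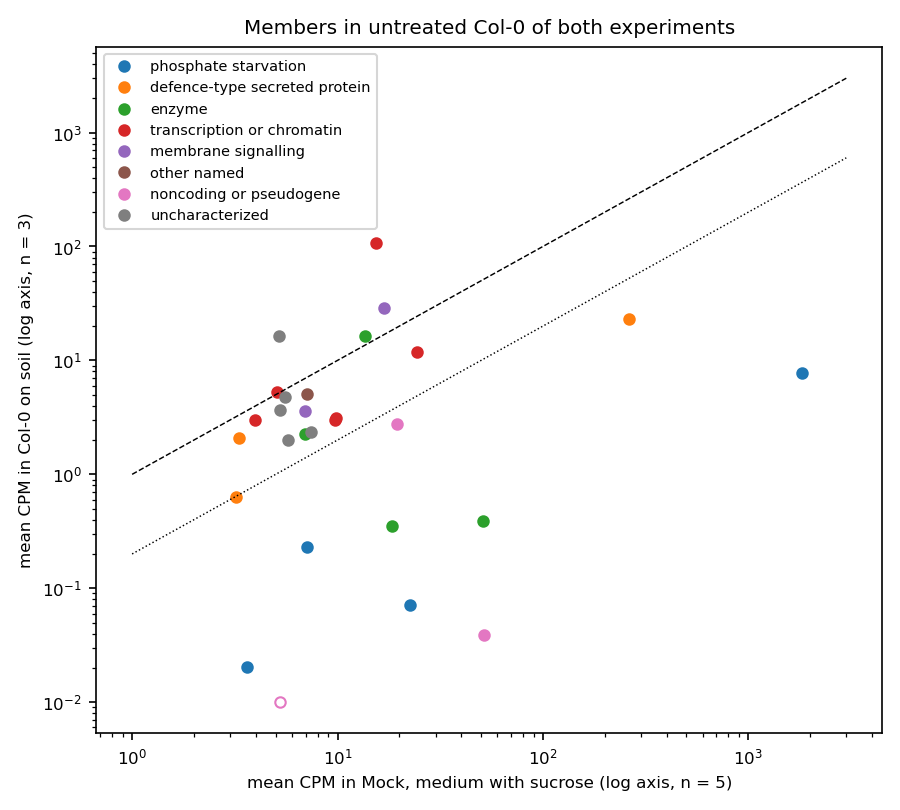
Mean CPM of each member in Mock seedlings on medium (n = 5) against its mean CPM in soil-grown Col-0 (n = 3), on log axes, coloured by role. The dashed line marks equal levels and the dotted line 5 times lower on soil, and the open circle at 0.01 is AT2G08825, with no count on soil; RL4 at 107 CPM lies highest on soil and the phosphate members lie below the dotted line.

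In the genotypes, 24 of the 28 members had enough counts to be tested. AT2G08820, AT2G08825, PAP14 and PAP25 did not pass the filter, with no library above 0.102, 0.0765, 0.152 and 0.0762 CPM. The 7 comparisons of 2 groups and the 2 interactions come from 1 edgeR quasi-likelihood fit over 20771 genes and 18 libraries, with a Benjamini-Hochberg adjusted p below 0.05 as the call. In this fit 10 of the 24 were called in at least 1 of the genotype comparisons and 14 in none. The share of all genes called in at least 1 comparison was not computed, so nothing is read from that count. The fit with the replicate number as a block called further members, named below. The 5 comparisons with Col-0 share its libraries. The main fit leaves out the replicate number, although the numbers were taken to pair the libraries. Its counts therefore depend on that choice, and values with the replicate number as a block are given where they change a call. In hda9-1 against Col-0 the block called 9.18% of all genes higher and 7.15% lower, against 0.79% and 0.958% in the main fit.

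**Figure D4:**
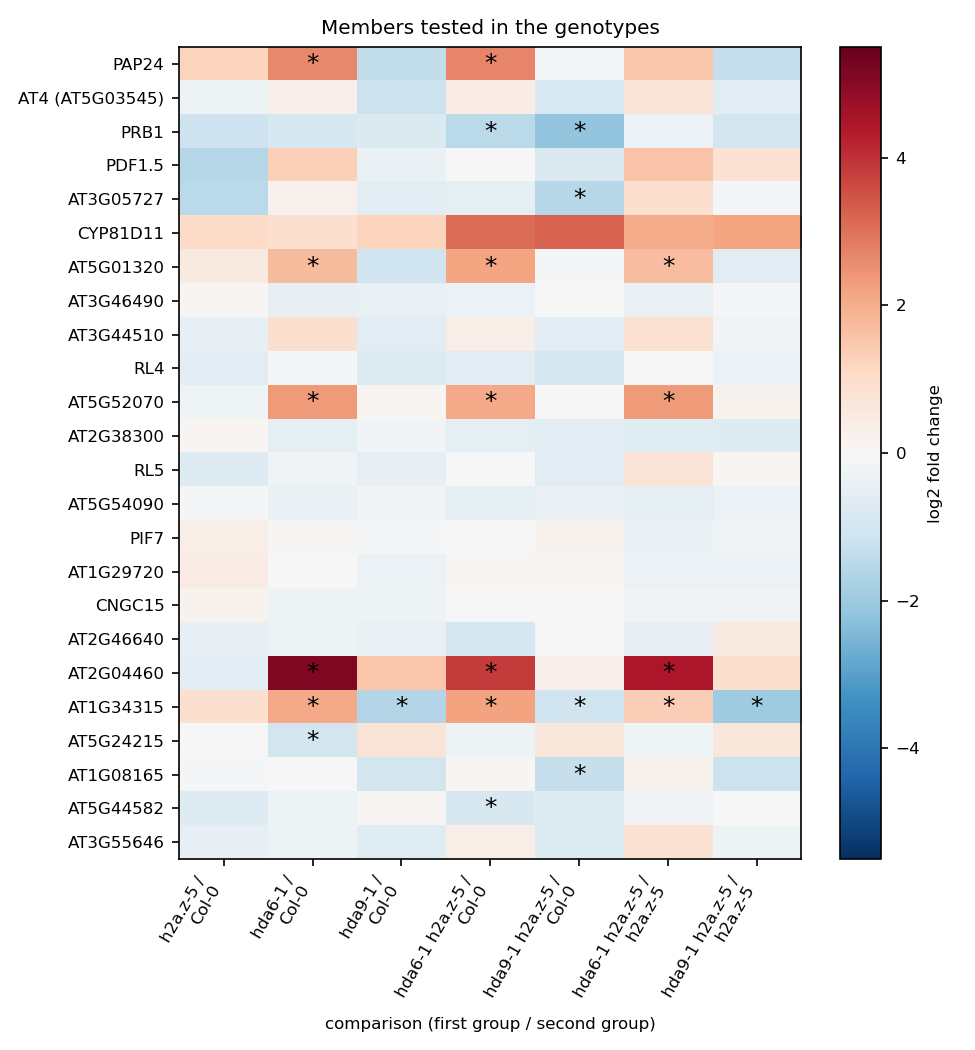
Log2 fold change (colour, red higher and blue lower in the first-named group) of the 24 tested members in 7 genotype comparisons, with stars for an adjusted p below 0.05. In libraries labelled hda6-1 against Col-0, stars fall on PAP24, AT5G01320, AT5G52070, AT2G04460 and AT1G34315 in red and on AT5G24215 in blue. In those labelled hda6-1 h2a.z-5 against Col-0, the same 5 are red and PRB1 and AT5G44582 blue, and the stars of hda9-1 and hda9-1 h2a.z-5 fall on blue cells.

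In libraries labelled hda6-1, 5 of the 24 members were higher and 1 lower than in Col-0, where 2.95% of all genes tested were higher and 0.101% lower. AT2G04460 had 132, 67.7 and 73.9 CPM in libraries labelled hda6-1, against 2.57, 1.92 and 3.86 CPM in Col-0 (log2 fold change 5.11 ± 0.46 SE, adjusted p = 2.12e-06). The groups did not overlap, and the rise was the largest of the 24. AT5G52070 had 16.5, 12.1 and 16.0 CPM in libraries labelled hda6-1, against 3.43, 3.02 and 2.98 CPM in Col-0 (2.33 ± 0.22, adjusted p = 3.94e-06). AT1G34315 had 6.64, 7.73 and 9.37 CPM in libraries labelled hda6-1, against 1.87, 1.92 and 2.27 CPM in Col-0 (2.06 ± 0.27, adjusted p = 0.000121). These 3 calls held with every library left out in turn; the copies of AT2G04460 and AT1G34315 elsewhere in the genome leave the source of their reads uncertain.

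AT5G01320 had 6.72, 3.98 and 10.4 CPM in libraries labelled hda6-1, against 3.00, 1.28 and 2.47 CPM in Col-0 (log2 fold change 1.72 ± 0.34, adjusted p = 0.00533). PAP24 had 1.496, 1.12 and 1.39 CPM in libraries labelled hda6-1, against 0.227, 0.335 and 0.126 CPM in Col-0 (2.64 ± 0.56, adjusted p = 0.0106). Neither overlapped between the groups. The PAP24 call was lost without Col-0 replicate 1 or replicate 3 (adjusted p up to 0.0713). The other phosphate member tested, AT4, had 11.8, 7.12 and 8.05 CPM in libraries labelled hda6-1, against 8.45, 8.63 and 6.41 CPM in Col-0, and was not called. Of 33 other listed phosphate genes tested there, 0 were higher and 0 lower. AT5G24215 was the lower member, with 1.90, 1.48 and 1.77 CPM in libraries labelled hda6-1, against 3.56, 4.21 and 3.23 CPM in Col-0 (-1.002 ± 0.24, adjusted p = 0.0234), and its call was lost without any of 5 of the 6 libraries, all but Col-0 replicate 3. The blocked fit called 5 members higher and 1 lower, where 4.12% and 0.722% of all genes were called.

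**Figure D5:**
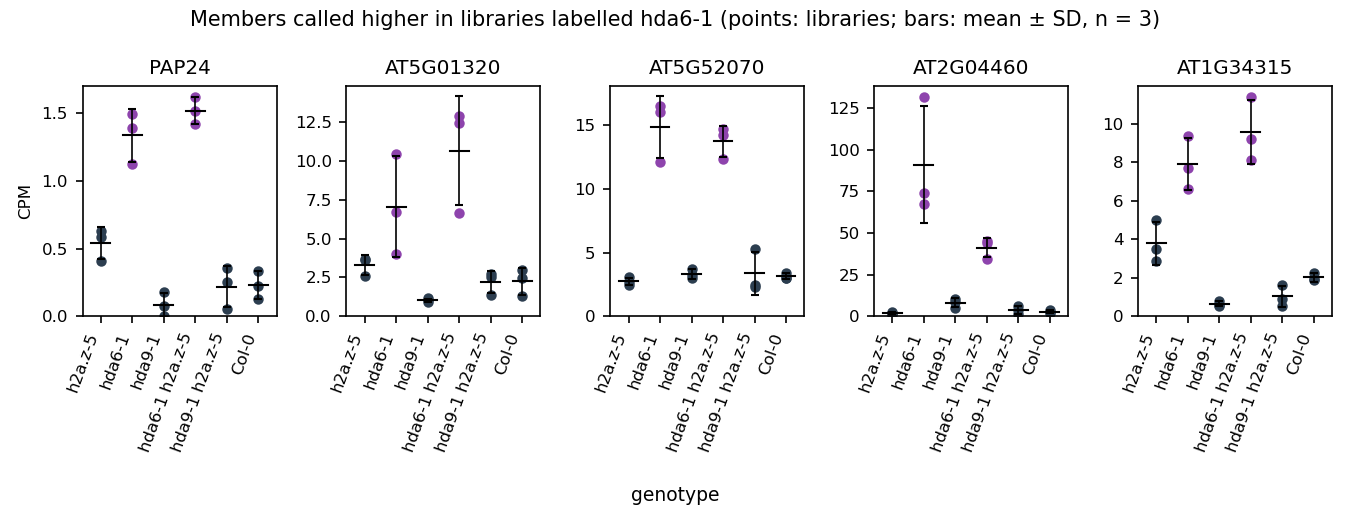
CPM of the 5 members called higher in libraries labelled hda6-1, in each library of the 6 genotypes (points), with mean ± SD (bars, n = 3) and the labelled hda6-1 groups in purple. In all 5 panels both purple groups lie above every other library, by the least in the AT5G01320 panel, where the lowest purple library is at 3.98 CPM and the highest other library at 3.67 CPM.

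Libraries labelled hda6-1 h2a.z-5 were set against h2a.z-5, a comparison that shares no library with the one above. Of the 24 members 4 were higher and 0 lower, where 2.01% of all genes tested were higher and 0.0144% lower, and all 4 were among the 5 that were higher in libraries labelled hda6-1. AT2G04460 had 44.9, 34.5 and 43.9 CPM in libraries labelled hda6-1 h2a.z-5, against 2.22, 0.913 and 2.498 CPM in h2a.z-5 (log2 fold change 4.46 ± 0.45, adjusted p = 2.24e-05). AT5G52070 had 14.7, 12.4 and 14.2 CPM in libraries labelled hda6-1 h2a.z-5, against 2.45, 3.04 and 2.72 CPM in h2a.z-5 (2.32 ± 0.22, adjusted p = 1.08e-05). In neither gene did the groups overlap.

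AT5G01320 had 12.4, 6.63 and 12.9 CPM in libraries labelled hda6-1 h2a.z-5, against 3.67, 2.59 and 3.64 CPM in h2a.z-5 (log2 fold change 1.68 ± 0.33, adjusted p = 0.00967). AT1G34315 had 9.22, 8.15 and 11.4 CPM in libraries labelled hda6-1 h2a.z-5, against 3.49, 2.86 and 4.997 CPM in h2a.z-5 (1.34 ± 0.26, adjusted p = 0.00898). Without h2a.z-5 replicate 2 both lost their calls, which left 2 members called, and AT1G34315 lost its call also without h2a.z-5 replicate 1. PAP24, with 1.62, 1.42 and 1.52 CPM in libraries labelled hda6-1 h2a.z-5 and 0.632, 0.583 and 0.407 CPM in h2a.z-5, was not called (1.49 ± 0.51, adjusted p = 0.259). With the block the counts were 4 higher and 0 lower, where 3.05% and 0.183% of all genes were called.

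Against Col-0, libraries labelled hda6-1 h2a.z-5 had 5 members higher and 2 lower, where 4.79% of all genes tested were higher and 1.22% lower. The 5 higher were those of the libraries labelled hda6-1, with log2 fold changes between 2.09 and 3.84. PRB1 was lower, with 0.456, 0.888 and 0.988 CPM in libraries labelled hda6-1 h2a.z-5, against 2.37, 1.59 and 2.35 CPM in Col-0 (-1.47 ± 0.38, adjusted p = 0.0288). AT5G44582 was lower too, with 2.71, 3.00 and 2.18 CPM in libraries labelled hda6-1 h2a.z-5, against 4.37, 4.79 and 5.20 CPM in Col-0 (-0.89 ± 0.21, adjusted p = 0.0162). Neither gene overlapped between the groups, yet both calls were lost without Col-0 replicate 3 or without replicate 1 or 3 of the combined line, and PRB1 lost its call also without Col-0 replicate 1. With the block 6 were higher and 4 lower, where 8.92% and 5.46% of all genes were called: CYP81D11 was added to the higher ones (blocked adjusted p = 0.00419) and RL4 and AT2G46640 to the lower ones (0.0489 and 0.0330).

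In hda9-1, 0 of the 24 members were higher and 1 was lower than in Col-0, where 0.79% of all genes tested were higher and 0.958% lower. An unadjusted p below 0.05 was found for 7 members. The share of all genes below that unadjusted p was not computed, so nothing is read from the 7. AT1G34315 had 0.608, 0.789 and 0.538 CPM in hda9-1, against 1.87, 1.92 and 2.27 CPM in Col-0 (log2 fold change -1.62 ± 0.30, adjusted p = 0.0156). The groups did not overlap, and the call was lost without Col-0 replicate 2, hda9-1 replicate 1 or hda9-1 replicate 3. With the block 2 were higher and 5 lower, where 9.18% and 7.15% of all genes were called. The blocked additions were AT2G04460 (8.69, 5.09 and 10.4 CPM in hda9-1, blocked adjusted p = 0.00249) and AT5G24215 (0.0145) on the higher side, and AT5G01320 (0.00647), AT1G08165 (0.0123), AT4 (0.0218) and RL4 (0.0245) on the lower side. DESeq2 called 2 higher and 3 lower, but it also called more of all genes than the main fit did. Its shares of all genes by direction were not computed, so nothing is read from these counts.

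The combined line hda9-1 h2a.z-5 had 0 members higher and 4 lower than Col-0, where 2.68% of all genes tested were higher and 3.21% lower. PRB1 had 0.530, 0.432 and 0.506 CPM in hda9-1 h2a.z-5, against 2.37, 1.59 and 2.35 CPM in Col-0 (-2.17 ± 0.40, adjusted p = 0.00513). AT3G05727 had 6.14, 11.8 and 5.70 CPM in hda9-1 h2a.z-5, against 24.7, 21.8 and 22.5 CPM in Col-0 (-1.59 ± 0.45, adjusted p = 0.0493). Both encode small secreted proteins, and neither overlapped between the groups. AT1G08165 had 1.06, 1.295 and 0.684 CPM in hda9-1 h2a.z-5, against 1.69, 2.59 and 2.75 CPM in Col-0 (-1.26 ± 0.31, adjusted p = 0.0260). AT1G34315 had 0.556, 0.914 and 1.62 CPM in hda9-1 h2a.z-5, against 1.87, 1.92 and 2.27 CPM in Col-0 (-1.08 ± 0.29, adjusted p = 0.0356). Only the PRB1 call held with each library left out in turn; the other 3 were each lost without 4 or 5 of the 6 libraries.

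With the block, hda9-1 h2a.z-5 had 2 members higher and 9 lower than Col-0, where 11.7% and 12% of all genes were called. The blocked additions on the lower side were RL4 (blocked adjusted p = 0.00423), AT5G44582 (0.0157), AT3G55646 (0.0271), AT2G38300 (0.0400) and AT4 (0.0437), and those on the higher side CYP81D11 (0.0104) and AT5G24215 (0.0233). CYP81D11 had 0.202, 1.40 and 11.4 CPM in hda9-1 h2a.z-5, against 0.151, 0.244 and 0.782 CPM in Col-0, and these groups overlapped.

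Against h2a.z-5, hda9-1 h2a.z-5 had 0 members higher and 1 lower, where 0.279% of all genes tested were higher and 0.361% lower. The gene was again AT1G34315, with 0.556, 0.914 and 1.62 CPM in hda9-1 h2a.z-5, against 3.49, 2.86 and 4.997 CPM in h2a.z-5 (log2 fold change -1.94 ± 0.28, adjusted p = 0.00370), and the call held with each library left out in turn. This comparison shares no library with hda9-1 against Col-0, where the same gene was the 1 called lower. AT1G34317, which overlaps AT1G34315 on the opposite strand, had 0.102 ± 0.0765 CPM in hda9-1, 0.144 ± 0.163 CPM in hda9-1 h2a.z-5 and 0.270 ± 0.105 CPM in Col-0 (SD, n = 3 each). With the block, AT5G24215 was added on the higher side (blocked adjusted p = 0.0402) and AT1G08165 (0.0110) and AT2G38300 (0.0396) on the lower side, where 4.16% and 3.4% of all genes were called.

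The h2a.z-5 line alone changed 0 of the 24 members in either direction at an adjusted p below 0.05, where 0.525% of all genes tested were higher and 0.385% lower than in Col-0. An unadjusted p below 0.05 was found for 5 members. The share of all genes below that unadjusted p was not computed, so nothing is read from the 5. AT3G05727 had 5.61, 10.2 and 9.18 CPM in h2a.z-5, against 24.7, 21.8 and 22.5 CPM in Col-0, without overlap (log2 fold change -1.49 ± 0.45, edgeR adjusted p = 0.187). DESeq2 called this gene lower (adjusted p = 0.0448) and no other member, and it called more of all genes here than the main fit did. The blocked fit called it (adjusted p = 0.0141) and AT5G44582 (0.0425) lower and AT1G34315 (0.0373) higher, where 2.06% of all genes were lower and 1.72% higher.

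Whether the effect of a deacetylase label on a member differed with h2a.z-5 was tested as an interaction. For hda6-1 with h2a.z-5, 0 of the 24 members were called in either direction by edgeR, DESeq2 or the blocked fit, where edgeR called 0.0289% of all genes higher and 0.0241% lower and the blocked fit 0.0578% higher and 0.0289% lower; 1 member had an unadjusted p below 0.05. For hda9-1 with h2a.z-5, 0 were called by the same 3 fits, where edgeR called 0.0289% of all genes higher and 0.00481% lower and the blocked fit 0.0481% higher and 0.0193% lower. Here 0 members had an unadjusted p below 0.05. For both interactions the share of all genes below that unadjusted p was not computed, so nothing is read from these counts.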

How the data were processed

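RNA-seq counts per gene for 28 libraries were used as the authors deposited them, in 1 table for the 6 soil-grown genotypes and 1 for TSA and Mock. The submitters' processing notes name fastp 0.23.4, Bowtie2, SAMtools 1.17, Picard 3.0.0, MACS2 2.2.6, deepTools 3.5.2 and TAIR10 with no role; no source used here gives the RNA aligner, the counter or whether strand was used. Groups follow the sample labels, which have h2a.z-5 in places where the design text has nrp1-1 nrp2-2.

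CPM were computed from column totals. Tests used edgeR 4.0.16 in R 4.3.3 (limma 3.58.1): TMM scaling, filterByExpr with a minimum count of 10 and a total of 15, 1 quasi-likelihood fit per table over all of its groups, and Benjamini-Hochberg adjustment over all genes tested, with calls at 0.05. DESeq2 1.42.0, RLE scaling, no filter, the replicate number as a block, and each library left out in turn were the alternatives. Scripts were tested on simulated data. Deviations from the group means correlated between libraries of the same number by 0.142 to 0.647 over 45 pairs in the genotypes. For different numbers there the range was -0.565 to 0.286, with a median of -0.24. In TSA and Mock the same number gave 0.101 to 0.497 over 5 pairs, and different numbers gave -0.435 to 0.330. The ranges overlapped in both experiments, and the numbers were taken to pair the libraries. P-values measure the spread between the deposited libraries.

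The members and the gene lists were chosen with earlier results of these data known. The rule for named genes took the targeted genes, members of a list, the 15 members highest in Mock, the 10 with the lowest ratio of highest TSA to lowest Mock, the called members of each genotype comparison, the 3 genes on either side of the threshold, and the 4 genes of smallest p of each list that held a member or was often called. Not all genes of that last kind are named here. PHO2, PHT1;4, LPR2, PAP15, PDF1.2c and the other family genes named as examples, and the remaining members, were added after their values were seen. Libraries held at least 30257874 counts. Floors cover counting error only. Of the loci that met the thresholds, 1 is not reported here.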

Additional observations from a re-analysis of the deposited data

Results flagged for a closer look

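Of 56 groups of 5 libraries examined (28 members in TSA and in Mock), 9 held a library whose gap to the nearest other exceeded 0.71 of the whole range. That cutoff marks about 1 in 20 groups of independent, normally spread values. These groups share their libraries, and the rule chose the members on the same values, so that rate does not apply. The count of 9 is a description only. TSA replicate 5 was the high library in 7 of them. AT3G05727 had 15.5 CPM in it, against 0.336 to 1.16 CPM in the other TSA libraries, and AT4 (AT5G03545) had 141 CPM, against 27.2 to 47.5 CPM. AT3G46490 had 0.427 CPM there (0 to 0.0743 CPM in the others) and RL5 had 0.694 CPM (0 to 0.175 CPM). PDF1.5 had 0.0800 CPM (0.0248 to 0.0305 CPM in the others), AT2G08825 had 0.0800 CPM and PRB1 had 0.0534 CPM, both with 0 CPM in the others, which for these 3 rests on 2 or 3 counts. PAP14 was highest in TSA replicate 1, at 1.97 CPM, against 0.305 to 0.774 CPM. AT3G44510 was lowest in Mock replicate 5, at 10.9 CPM, against 19.7 to 21.2 CPM. The members summed to 35.2 CPM in TSA replicate 5 with AT4 left out, against 10.4 to 12.7 CPM in the other 4 TSA libraries. What sets replicate 5 apart was not tested.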

How the results depend on the processing

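No log2 fold change of a member called in a genotype comparison changed sign under the alternatives run. Some lists outside the members changed their balance with replicate 5: root hair genes were 4 higher and 8 lower without TSA replicate 5 (5 and 0 with it), cold and ABA genes 4 and 8 (4 and 2), and without replicate 5 of both groups root endodermis genes were 5 and 7 (5 and 1) and root meristem genes 0 and 3 (1 and 0). The shares of all genes called without replicate 5 were not computed. The number of genes that met the rule was 12 with a gap of 10 times in place of 5, 13 at 5 CPM or more in Mock, 19 with TMM-scaled CPM, 41 with a gap of 4 times and 40 at 1 CPM or more. It was 212 without replicate 5 of both groups and 28 to 117 with single libraries left out. With the replicate number as a block, members called were 1 higher and 2 lower in h2a.z-5, 2 and 5 in hda9-1, 2 and 9 in hda9-1 h2a.z-5, and 4 lower in libraries labelled hda6-1 h2a.z-5, each against Col-0, and 1 higher and 3 lower in hda9-1 h2a.z-5 against h2a.z-5; the block moved no other member count by over 1.5 times. DESeq2 gave 1 lower in h2a.z-5, 2 higher and 3 lower in hda9-1 and 1 higher in hda9-1 h2a.z-5 against Col-0, and 2 lower in hda9-1 h2a.z-5 against h2a.z-5. Its shares of all genes by direction were not computed, and its calls over all genes in both directions together are given below. With single libraries left out, libraries labelled hda6-1 had 4 to 5 members higher and 0 to 1 lower, hda9-1 0 to 1 lower, libraries labelled hda6-1 h2a.z-5 0 to 2 lower and hda9-1 h2a.z-5 0 to 1 higher and 1 to 3 lower against Col-0, and libraries labelled hda6-1 h2a.z-5 had 2 to 4 higher against h2a.z-5. Listed genes that are no members, 93 higher and 98 lower with TSA, were 142 higher with the block, 163 higher and 197 lower without replicate 5 of both groups, and 67 to 143 higher and 73 to 159 lower with single libraries left out. Over all genes, calls against Col-0 with the block were 785 in place of 189 in h2a.z-5, 1005 in place of 634 in libraries labelled hda6-1, 3392 in place of 363 in hda9-1, 2988 in place of 1248 in those labelled hda6-1 h2a.z-5 and 4922 in place of 1224 in hda9-1 h2a.z-5; against h2a.z-5 they were 671 in place of 420 and 1570 in place of 133, and for the interactions 18 in place of 11 and 14 in place of 7. DESeq2 called 388 in h2a.z-5, 1177 in hda9-1 and 2070 in hda9-1 h2a.z-5 against Col-0, 559 in hda9-1 h2a.z-5 against h2a.z-5, and 30 and 14 for the interactions. Without the filter on low counts, hda9-1 had 213 and its interaction 11. The cause was not tested. Members with a TSA mean below 1 CPM rest on few counts, which limits the precision of their ratios.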
